A study of Homo sapiens with 6 samples.

Results

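The nuclear receptors described here are 38 listed genes of the superfamily, taken as a family without SF-1, LRH-1, DAX-1, the LXRs and the retinoic acid receptors. They were chosen by name and not by any measured value, though earlier results of these data were known when they were chosen. Of the 38, 33 had a value from a probe set annotated to that gene alone, out of 19775 genes with such a probe set. NR1D1 lies only on 3 probe sets that also list THRA, and NR1H4, NR1I2, HNF4A and NR2F2 were not analysed here. Total RNA of H295R/TR SF-1 cells was hybridized to 6 Affymetrix HG-U133 Plus 2.0 arrays. H295R is a human adrenocortical carcinoma cell line, and all 6 arrays came from the same subclone, which carries an SF-1 transgene under a doxycycline-inducible promoter. The 3 arrays labelled Dox were from cells given 1 µg/mL doxycycline for 72 h, and the 3 labelled basal were from the subclone without doxycycline. The comparison asks which genes respond to a raised dose of SF-1, without a control for doxycycline in cells that lack the transgene.

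Nuclear receptors are transcription factors that share a zinc-finger DNA-binding domain and a ligand-binding domain. Steroid receptors wait in a complex with HSP90 and bind DNA as homodimers, whereas thyroid hormone, vitamin D and fatty acid receptors bind DNA as heterodimers with an RXR. Many orphan members bind an extended half-site as monomers, and SF-1, the ERRs and the NR4A receptors recognise closely related half-sites. In the adrenal cortex, NR4A receptors are induced by ACTH and angiotensin II and act on steroidogenic promoters, and COUP-TFs can bind SF-1 elements.

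Arrays are named by their label and a number that follows the order of deposition and is absent from the labels, and "Dox" and "basal" stand for the labels throughout. Values are log2 signals, and the median of all probe sets lay between 5.56 and 5.6 on the 6 arrays. NR5A1, which encodes SF-1, had signals of 5.55, 6.21 and 6.41 in Dox and 5.84, 5.92 and 6.30 in basal, so the labelled groups overlapped and the difference was 0.03 ± 0.24 (SE, exact permutation test, p = 1). The NR5A1 difference without basal 3 and Dox 1 was 0.43 ± 0.13 (SE, limma adjusted p = 0.0808). The paper reports SF-1 overexpression after doxycycline in these cells with an immunoblot of the protein, whereas the values here are RNA signals. Arrays of opposite label were nearly identical in 2 cases, and whether labels or files were exchanged or duplicated cannot be told from the files, so every Dox minus basal value depends on labels that are in doubt. Over the 33 receptors, Dox 1 and basal 1 differed with an SD of 0.117 and by at most 0.27, and Dox 2 and basal 3 with an SD of 0.096 and by at most 0.30. Between arrays of the same label this SD was 0.32 to 0.556. Dox 3 and basal 2 had a narrower spread of values over all probe sets than the 4 others and are called the narrow arrays. Of 15 measured adrenocortical markers, 2 were below the median of the array on all 6 arrays, as were 3 of 7 markers of the adrenal medulla and 6 of 13 of stromal, endothelial and blood cells. Because of the near-identical pairs, counts and the called receptors are given over all 6 arrays and without basal 3 and Dox 1. The fit without these arrays sets Dox 2 and Dox 3 against basal 1 and basal 2 with the narrow arrays as a block, and the mirror fit leaves out basal 1 and Dox 2 instead. The choice of arrays and of the block was made on these same data, so p-values of the 4-array fits are no independent evidence.

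Over all 6 arrays, none of the 33 receptors differed between Dox and basal beyond the spread between arrays. In limma's moderated test 0 of 33 passed an adjusted p of 0.05, against 0.0% of all genes, and the lowest adjusted p of a receptor was 1. At an unadjusted p under 0.05 the count was 0 of 33, against 0.551% of all genes. No receptor had labelled groups without overlap, against 3.17% of all genes (1.49% with Dox above basal and 1.68% with Dox below). None differed by 2-fold or more, against 0.0253%. The differences lay between -0.30 for NR3C2 and 0.30 for NR2F1, and 16 of 33 were above 0. The median absolute difference was 0.076 for the receptors and 0.068 for all genes, and the median SE was 0.21 and 0.15. The plot of each receptor's signal around its own mean shows the columns of Dox 1 and basal 1, and those of Dox 2 and basal 3, with the same colours in nearly every row. In bulk RNA, fewer cells that express a gene and less RNA per cell cannot be told apart.

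**Figure D1:**
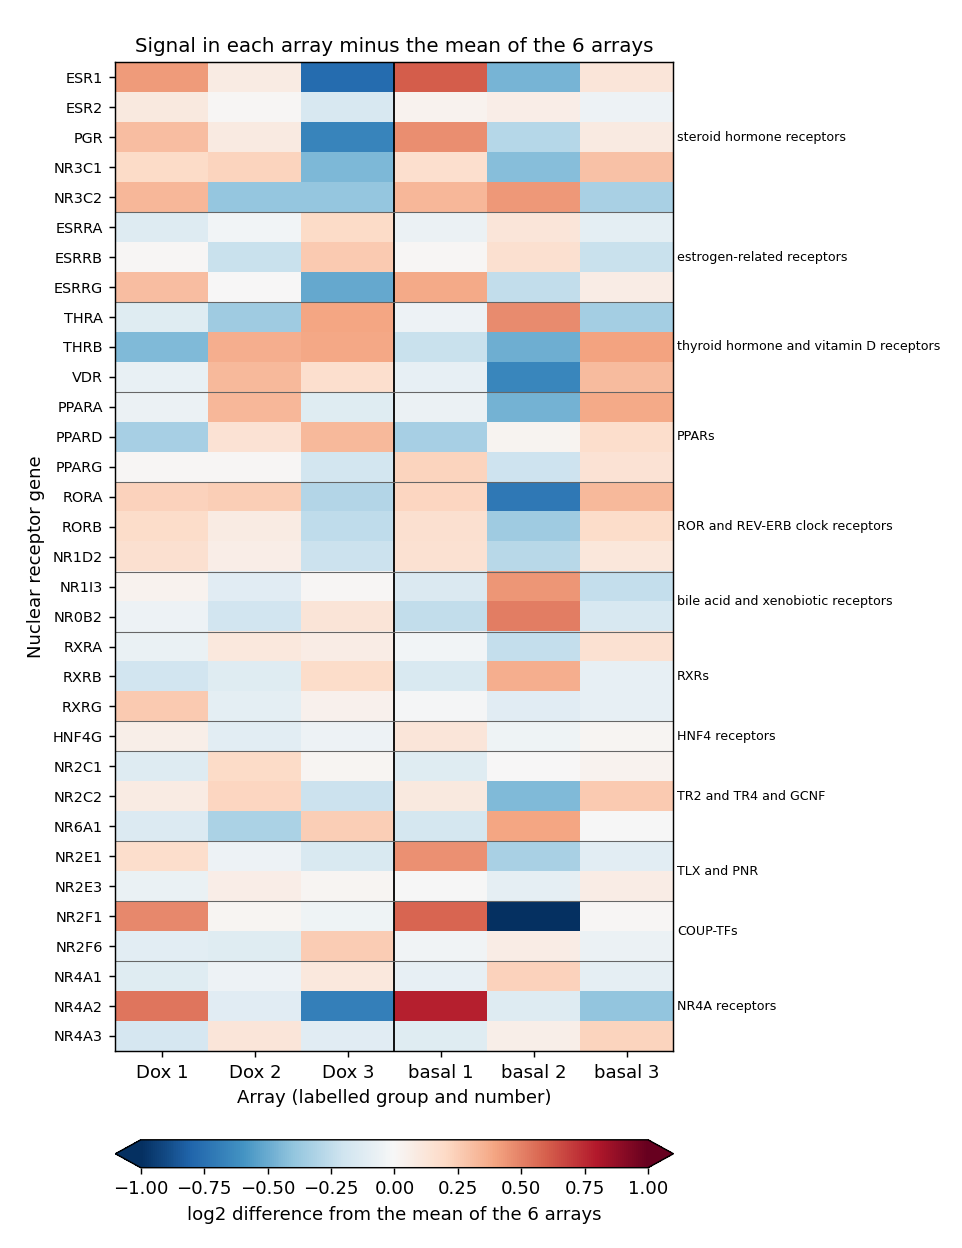
Signal of 33 nuclear receptor genes in each of the 6 arrays (columns, Dox then basal) as the log2 difference from the gene's mean over the 6 arrays (colour), with genes in rows grouped by receptor class. Dox 1 resembles basal 1 and Dox 2 resembles basal 3, and the lowest value is that of NR2F1 in basal 2.

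Without basal 3 and Dox 1, 4 of 33 receptors passed limma's adjusted p of 0.05, against 6.99% of all genes. THRB and VDR were higher in Dox, 2 of 33 against 3.42% of all genes, and NR3C2 and NR4A2 were lower, 2 of 33 against 3.58%. Each of the 4 differed by less than 2-fold, a size that 1.53% of all genes reached with a call. At an unadjusted p under 0.05 the count was 9 of 33, against 17.3% of all genes. The median absolute difference was 0.167 for the receptors and 0.116 for all genes. In the mirror fit without basal 1 and Dox 2, 0 of 33 receptors passed, against 0.0% of all genes. There 1 of 33, NR2F1, had an unadjusted p under 0.05, against 0.566%. The near-identical pairs make Dox 1 minus basal 3 nearly the reverse of Dox 2 minus basal 1. A difference shared by both pairs of the 4-array fit therefore largely cancels in the mirror fit, which is no separate check of the calls. On the 4 arrays without basal 3 and Dox 1, 0 of 33 passed with no block, against 0.0% of all genes. With the style of the sample titles as the block, basal 1 stood alone in its block. That fit compared Dox 2 and Dox 3 with basal 2 alone, so it cannot check the 4-array calls. Its differences were -0.82 for NR3C2, 0.86 for THRB, 0.91 for VDR and -0.27 for NR4A2. With the median over a gene's probe sets NR3C2 and NR4A2 alone passed, against 7.1% of all genes. The plot of both differences for each receptor shows the 4 called genes farther from 0 in the 4-array fit than over all arrays.

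**Figure D2:**
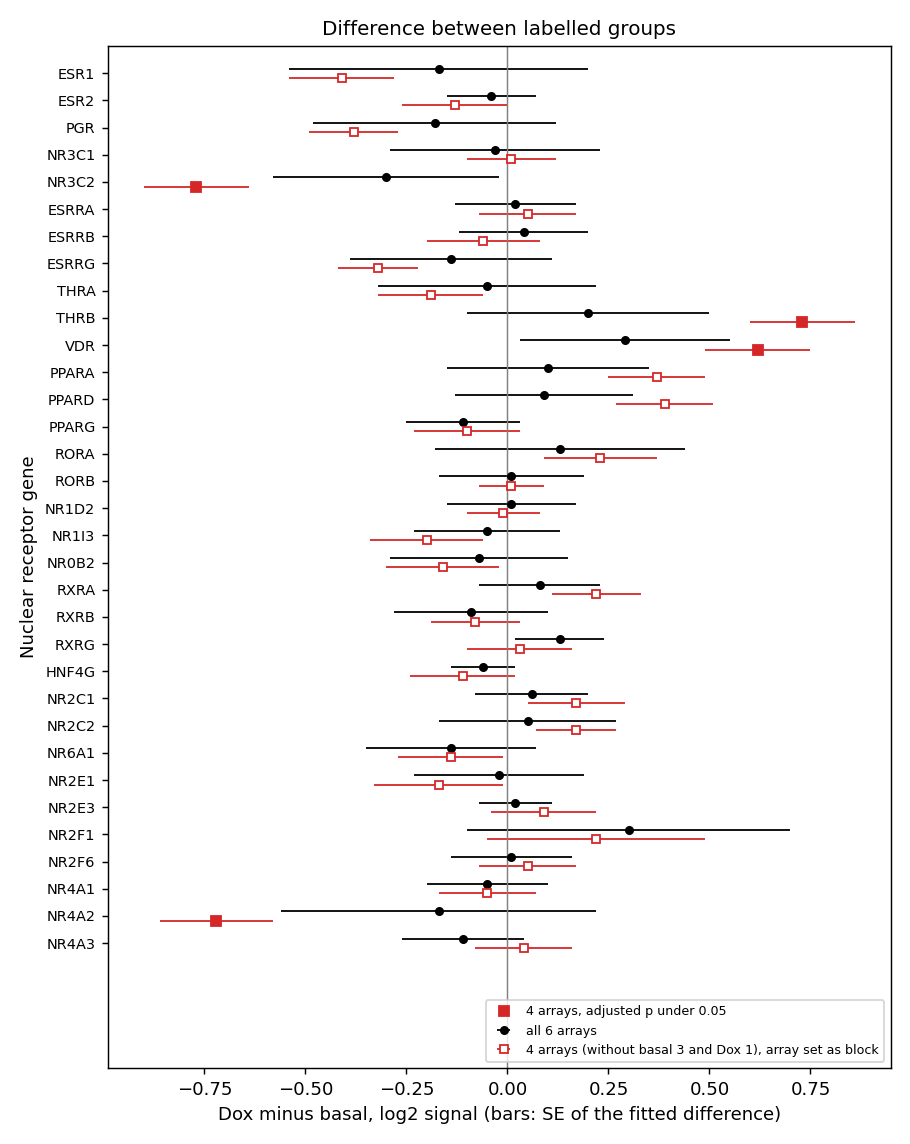
Dox minus basal difference in log2 signal for 33 nuclear receptor genes over all 6 arrays (black circles) and over 4 arrays without basal 3 and Dox 1 with the narrow arrays as a block (red squares, filled where limma's adjusted p was under 0.05). Bars are the SE of the fitted difference. The 6-array differences lie between -0.30 and 0.30, and the filled squares are NR3C2, THRB, VDR and NR4A2.

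Of the 5 steroid hormone receptors, the mineralocorticoid receptor was called in the 4-array fit, and ESR1, ESR2, PGR and NR3C1 were not. NR3C2, which encodes this aldosterone and cortisol receptor, had signals of 7.46, 6.74 and 6.74 in Dox and 7.46, 7.56 and 6.80 in basal. Dox 2, Dox 3 and basal 3 were low and the 3 others high, so each label held both levels. The means were 6.98 ± 0.41 in Dox and 7.28 ± 0.41 in basal (SD, n = 3 each), a difference of -0.30 ± 0.28 (SE, exact permutation test, p = 0.2). With 3 arrays against 3 this test cannot give a p below 0.1. Without basal 3 and Dox 1, NR3C2 was 1.71-fold lower in Dox (-0.77 ± 0.13, SE, limma adjusted p = 0.00281). The single-array differences were -0.72 for Dox 2 minus basal 1 and -0.82 for Dox 3 minus basal 2, and 0.65 for Dox 1 minus basal 3. NR3C2 has 1 probe set on the array, so no other probe set could be set beside it.

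ESR1, the estrogen receptor alpha, had signals of 7.29, 6.95 and 6.10 in Dox and 7.47, 6.40 and 6.99 in basal. The lowest values were those of the narrow arrays Dox 3 and basal 2, and the groups overlapped. The difference was -0.17 ± 0.37 over 6 arrays and -0.41 ± 0.13 without basal 3 and Dox 1 (SE, limma adjusted p = 1 and 0.0978). PGR, the progesterone receptor and a target of estrogen receptors, had signals of 9.20, 8.98 and 8.23 in Dox and 9.36, 8.61 and 8.98 in basal. Its array order was nearly that of ESR1, with the narrow arrays lowest. The difference was -0.18 ± 0.30, and -0.38 ± 0.11 without basal 3 and Dox 1 (SE, limma adjusted p = 1 and 0.0804). NR3C1, the glucocorticoid receptor, was likewise lower in the narrow arrays, at 8.93 in Dox 3 and 8.95 in basal 2, than in the 4 others, at 9.55 to 9.67. Its groups differed by -0.03 ± 0.26 over 6 arrays. The NR3C1 probe set is of a kind whose probes can also match other transcripts. ESR2, the estrogen receptor beta, stayed within 5.95 to 6.21 on all arrays.

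The 3 estrogen-related receptors are orphan members that bind an extended half-site and drive oxidative metabolism with PGC-1 coactivators. ESRRG had signals of 10.73, 10.43 and 9.91 in Dox and 10.80, 10.18 and 10.50 in basal, with the narrow arrays lowest and the groups overlapping. Its difference was -0.14 ± 0.25 over 6 arrays and -0.32 ± 0.10 without basal 3 and Dox 1 (SE, limma adjusted p = 1 and 0.0849). The other ESRRG probe set gave a 4-array difference of -0.34, but there the narrow arrays were highest, at 7.59 in Dox 3 and 8.03 in basal 2, against 6.91 to 7.33 in the 4 others. ESRRA lay between 8.23 and 8.55 and ESRRB between 5.98 and 6.46, each higher in the narrow arrays than in the 4 others. Neither differed by more than 0.04 between the labelled groups.

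Because SF-1, the ERRs and the NR4A receptors recognise the extended half-site AAGGTCA, the receptors' promoters were searched for it. RefSeq promoter windows on GRCh38.p14, from 250 bases before to 50 after each start, were found for 28 of the 33 receptors, 71 windows in all. AAGGTCA, or TGACCTT on the other strand, was in 6 of these 71 windows (8.45%), against 3.92% of all 35116 windows of that length. The 6 windows belong to ESRRG, PPARG, NR2E1 and ESR2 and hold 5 distinct sites, since overlapping PPARG windows share 1 of them. Stretches around these matches are shown in the gene's direction, with the half-site in capitals.
ESRRG, chr1:217077030-217077070, minus strand: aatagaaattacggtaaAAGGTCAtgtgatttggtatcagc
PPARG, chr3:12287166-12287206, plus strand: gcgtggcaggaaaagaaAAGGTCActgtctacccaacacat
PPARG, chr3:12289028-12289068, plus strand: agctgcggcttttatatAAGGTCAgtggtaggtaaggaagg
NR2E1, chr6:108167958-108167998, plus strand: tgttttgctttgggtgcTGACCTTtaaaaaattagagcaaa
ESR2, chr14:64283026-64283054, minus strand: ctttgagaacattataaTGACCTTtgtgc
A match describes the letters only and is not a binding site. Of these 4 genes, 0 passed the test in any of the fits above. Their 4-array differences were -0.32 for ESRRG, -0.10 for PPARG, -0.17 for NR2E1 and -0.13 for ESR2. With a common median and spread of the arrays, ESRRG passed in the 4-array fit (-0.36, limma adjusted p = 0.0473), as did 10.1% of all genes. The cAMP response element TGACGTCA, which reads the same on both strands and shares the letters GTCA with the half-site, was in 2 of the 71 windows (2.82%), of NR2E1 and NR6A1, against 1.85% of all windows.

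Of the 4 receptors called in the 4-array fit, NR3C2 and THRB had promoter windows, and VDR and NR4A2 had none in the table. The windows of NR3C2 and THRB held neither AAGGTCA nor TGACGTCA. For each gene 1 window is printed, since these are the promoters of called members.
NR3C2, chr4:148442365-148442664, minus strand: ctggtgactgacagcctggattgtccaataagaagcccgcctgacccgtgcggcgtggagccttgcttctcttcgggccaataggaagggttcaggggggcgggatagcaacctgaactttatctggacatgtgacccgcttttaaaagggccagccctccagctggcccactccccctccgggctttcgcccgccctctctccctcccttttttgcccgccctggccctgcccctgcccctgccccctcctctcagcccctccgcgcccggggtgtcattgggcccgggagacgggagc
THRB, chr3:24495659-24495958, minus strand: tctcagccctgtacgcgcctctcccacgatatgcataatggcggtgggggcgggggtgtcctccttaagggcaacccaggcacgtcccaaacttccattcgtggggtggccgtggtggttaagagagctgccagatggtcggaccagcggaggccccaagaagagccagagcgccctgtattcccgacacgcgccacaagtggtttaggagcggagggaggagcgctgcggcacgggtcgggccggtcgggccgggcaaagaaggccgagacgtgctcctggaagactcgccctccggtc

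THRB and VDR were the receptors with higher signal in Dox in the 4-array fit. THRB, the thyroid hormone receptor beta, had signals of 5.85, 6.66 and 6.68 in Dox and 6.07, 5.81 and 6.70 in basal. Dox 2, Dox 3 and basal 3 were high and the 3 others low, the reverse of the NR3C2 pattern in the same arrays. The means were 6.40 ± 0.47 in Dox and 6.20 ± 0.46 in basal (SD, n = 3 each), and the difference was 0.20 ± 0.30 (SE, exact permutation test, p = 0.8). Without basal 3 and Dox 1 it was 0.73 ± 0.13, or 1.65-fold (SE, limma adjusted p = 0.0062). The single-array differences were 0.59 and 0.86 in the arrays kept, and -0.85 for Dox 1 minus basal 3. The call rested on 1 of 3 THRB probe sets, whose 4-array differences spanned -0.06 to 0.73. The other THRB probe sets, at 4.67 to 5.1 and 4.5 to 5.13, were below the median of the array on all 6 arrays. Their signal is not shown to be above background. THRA, the thyroid hormone receptor alpha, differed by -0.05 ± 0.27 over 6 arrays and was highest in the narrow arrays, at 8.26 in Dox 3 and 8.34 in basal 2. The THRA and NR1D1 genes overlap on opposite strands, and 3 further probe sets list both.

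VDR, the vitamin D receptor, had signals of 8.76, 9.16 and 9.0 in Dox and 8.75, 8.18 and 9.15 in basal. The basal 2 value was the lowest, and basal 3 was as high as Dox 2. The means were 8.98 ± 0.20 in Dox and 8.69 ± 0.49 in basal (SD, n = 3 each), a difference of 0.29 ± 0.26 (SE, exact permutation test, p = 0.4). Without basal 3 and Dox 1 the difference was 0.62 ± 0.13, or 1.54-fold (SE, limma adjusted p = 0.0129). The arrays kept differed by 0.42 and 0.83, and Dox 1 minus basal 3 was -0.39. All 4 VDR probe sets were higher in Dox in the 4-array fit, by 0.15 to 0.62, and 2 of them passed when each probe set was tested.

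**Figure D3:**
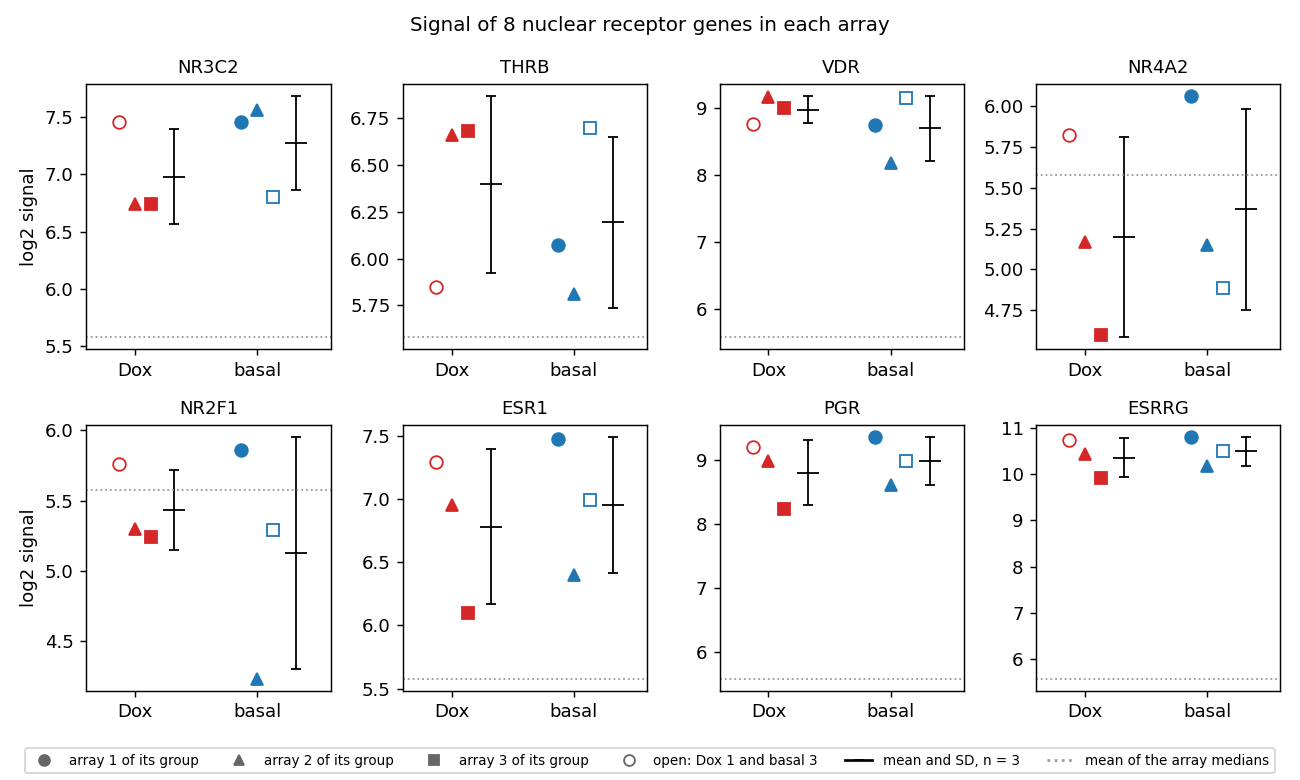
Log2 signal of 8 nuclear receptor genes in the 3 Dox arrays (red, left) and the 3 basal arrays (blue, right) with the mean and SD of each labelled group (n = 3) and the mean of the array medians (dotted line). Marker shape gives the array number, and open markers are Dox 1 and basal 3. In NR3C2 and THRB, Dox 1 sits with basal 1, and basal 3 with Dox 2.

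The PPARs are fatty acid receptors that pair with an RXR. PPARA, which drives fatty acid oxidation, differed by 0.10 ± 0.25 over 6 arrays and by 0.37 ± 0.12 without basal 3 and Dox 1 (SE, limma adjusted p = 1 and 0.104). PPARD, a widely expressed member, differed by 0.09 ± 0.22 and by 0.39 ± 0.12 (SE, limma adjusted p = 1 and 0.0833). In both genes Dox 2 was above basal 1 and Dox 3 above basal 2, and Dox 1 was below basal 3. PPARG, the adipogenic member, was below the median of the array on all 6 arrays, at 4.41 to 4.84, so its signal is not shown to be above background.

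RORA, RORB and NR1D2 act in the circadian clock, where RORs activate and REV-ERBs repress shared elements. RORA had signals of 8.08, 8.09 and 7.55 in Dox and 8.06, 7.13 and 8.17 in basal. RORB had signals of 12.64, 12.54 and 12.20 in Dox and 12.62, 12.10 and 12.64 in basal. NR1D2, which encodes REV-ERB beta, had signals of 11.54, 11.44 and 11.16 in Dox and 11.53, 11.10 and 11.49 in basal. On these probe sets the narrow arrays Dox 3 and basal 2 were below the 4 others, and the labelled groups overlapped. Another probe set of each gene had the narrow arrays above the 4 others, so this side depends on the probe set. In the other NR1D2 probe set they read 9.04 and 9.52, against 8.26 to 8.68 in the 4 others, and in a lower RORB probe set 10.03 and 9.99, against 9.03 to 9.51. The differences were 0.13 ± 0.31 for RORA, 0.01 ± 0.18 for RORB and 0.01 ± 0.16 for NR1D2 (SE). In the 4-array fit the differences of RORB and NR1D2 were 0.01 ± 0.08 and -0.01 ± 0.09 (SE).

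NR2C2, which encodes the orphan receptor TR4, had signals of 10.14, 10.27 and 9.84 in Dox and 10.15, 9.61 and 10.32 in basal. RXRB, a shared heterodimer partner, had signals of 9.39, 9.46 and 9.77 in Dox and 9.43, 9.95 and 9.50 in basal. The narrow arrays were lowest for NR2C2 and highest for RXRB, with overlapping groups for both. Their differences were 0.05 ± 0.22 for NR2C2 and -0.09 ± 0.19 for RXRB (SE). RXRA lay between 9.07 and 9.46. RXRG, the third RXR, was below the median of the array on all 6 arrays, at 3.97 to 4.34.

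Several orphan and metabolic receptors had signals near or below the median of the array. NR1I3, which encodes the xenobiotic receptor CAR, and HNF4G were below the median of the array on all 6 arrays, at 4.05 to 4.73 and 3.14 to 3.36. NR2E3, a photoreceptor transcription factor, was also below it, at 5.28 to 5.45. NR2E1, which encodes the neural stem cell factor TLX, was below it in 4 of 6 arrays. In all, 5 of 33 receptors lay below the median on all 6 arrays, against 29.8% of all genes, and 25 lay above it on all 6, against 62.7%. NR0B2, which encodes SHP, a repressor of other receptors in bile acid feedback, lay between 6.35 and 7.11, with its highest value in basal 2. NR2C1 and NR6A1, which encode TR2 and GCNF, differed by 0.06 ± 0.14 and -0.14 ± 0.21 (SE). NR6A1 had 1 sign in all 3 pairs of arrays, at -0.14 in Dox 2 minus basal 1, -0.15 in Dox 3 minus basal 2 and -0.12 in Dox 1 minus basal 3. This held for 1 of 33 receptors, against 14.6% of all genes. The near-identical arrays make Dox 1 minus basal 3 nearly the reverse of Dox 2 minus basal 1, so this count is no separate evidence.

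NR2F1, which encodes COUP-TFI, had the widest range of the 33 receptors. Its signals were 5.76, 5.30 and 5.24 in Dox and 5.86, 4.23 and 5.29 in basal. The basal 2 value lay below all others, and Dox 1 and basal 1 were the only arrays above the median of the array. The means were 5.43 ± 0.28 in Dox and 5.13 ± 0.83 in basal (SD, n = 3 each), a difference of 0.30 ± 0.40 (SE, exact permutation test, p = 0.8). The 4-array difference was 0.22 ± 0.27, made of -0.57 for Dox 2 minus basal 1 and 1.02 for Dox 3 minus basal 2. In the mirror fit without basal 1 and Dox 2 it was 0.74 ± 0.19 (SE, limma adjusted p = 1). NR2F6, a related orphan repressor, stayed between 9.14 and 9.51.

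The NR4A receptors are orphan immediate early genes. NR4A2, which encodes NURR1, had signals of 5.82, 5.17 and 4.60 in Dox and 6.06, 5.15 and 4.89 in basal. Dox 1 and basal 1 were high, the 4 others were below the median of the array, and the groups overlapped. The means were 5.19 ± 0.61 in Dox and 5.37 ± 0.61 in basal (SD, n = 3 each), a difference of -0.17 ± 0.39 (SE, exact permutation test, p = 0.8). Without basal 3 and Dox 1 the gene was lower in Dox (-0.72 ± 0.14, SE, limma adjusted p = 0.00715). Of the 4 arrays of this fit, basal 1 alone was above the median of the array, so the size of the difference is uncertain. In the mirror fit without basal 1 and Dox 2 the difference was 0.19 (limma adjusted p = 1). The arrays kept differed by -0.89 and -0.56, and Dox 1 minus basal 3 was 0.93. All 3 NR4A2 probe sets were lower in Dox in the 4-array fit, at -0.72 to -0.39, and 1 of them passed. That probe set is of a kind whose probes can also match other transcripts. The other NR4A2 probe sets, at 4.16 to 5.16 and 4.05 to 4.71, were below the median of the array on all 6 arrays. Their signal is not shown to be above background.

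NR4A3, which encodes NOR1, had signals of 9.40, 9.69 and 9.46 in Dox and 9.45, 9.63 and 9.79 in basal. The values were close and overlapped, with basal 3 highest. The difference was -0.11 ± 0.15 over 6 arrays and 0.04 ± 0.12 without basal 3 and Dox 1 (SE, limma adjusted p = 1 and 0.934). NR4A1, which encodes NUR77, lay between 8.31 and 8.66 and differed by -0.05 in both fits. The 3 NR4A genes therefore had 1 call among them, for NR4A2.

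Across the family, the narrow arrays stood on 1 side of the others in many receptors. Taking 1 probe set per gene, Dox 3 and basal 2 were both below the 4 others in 12 of 33 receptors, against 26.6% of all genes, and both above them in 8, against 25.4%. The 12 were ESR1, PGR, NR3C1, ESRRG, PPARA, PPARG, RORA, RORB, NR1D2, NR2C2, NR2E1 and NR2F1, and the 8 were ESRRA, ESRRB, THRA, RXRB, NR6A1, NR2F6, NR4A1 and NR0B2. Of these 20 receptors, 16 have more than 1 probe set, and in 8 of them another probe set had the narrow arrays on the opposite side. The 8 are ESR1, ESRRA, ESRRG, NR1D2, NR2F6, PPARA, RORA and RORB. A range of at least 2-fold over the 6 arrays was seen in 5 receptors, ESR1, PGR, RORA, NR2F1 and NR4A2, against 9.29% of all genes. The highest or the lowest array was Dox 3 or basal 2 in 30 of 33 receptors, against 88.7% of all genes. NR3C2, THRB, VDR and NR4A2 were neither among the 12 nor among the 8. This too depends on the probe set, since other THRB probe sets had the narrow arrays above the 4 others. Other VDR probe sets had them below. Dox 2 minus basal 1 had the sign of Dox 3 minus basal 2 for 19 of 33 receptors, against 60.9% of all genes. The plot of single-array differences shows THRB, VDR and PPARD up in both and NR3C2, NR4A2, ESR1 and PGR down in both. All 7 had the opposite sign in Dox 1 minus basal 3. Dox 1 was nearly identical to basal 1 and Dox 2 to basal 3, so Dox 1 minus basal 3 nearly reverses Dox 2 minus basal 1. The opposite sign follows from these pairs and is no separate observation.

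**Figure D4:**
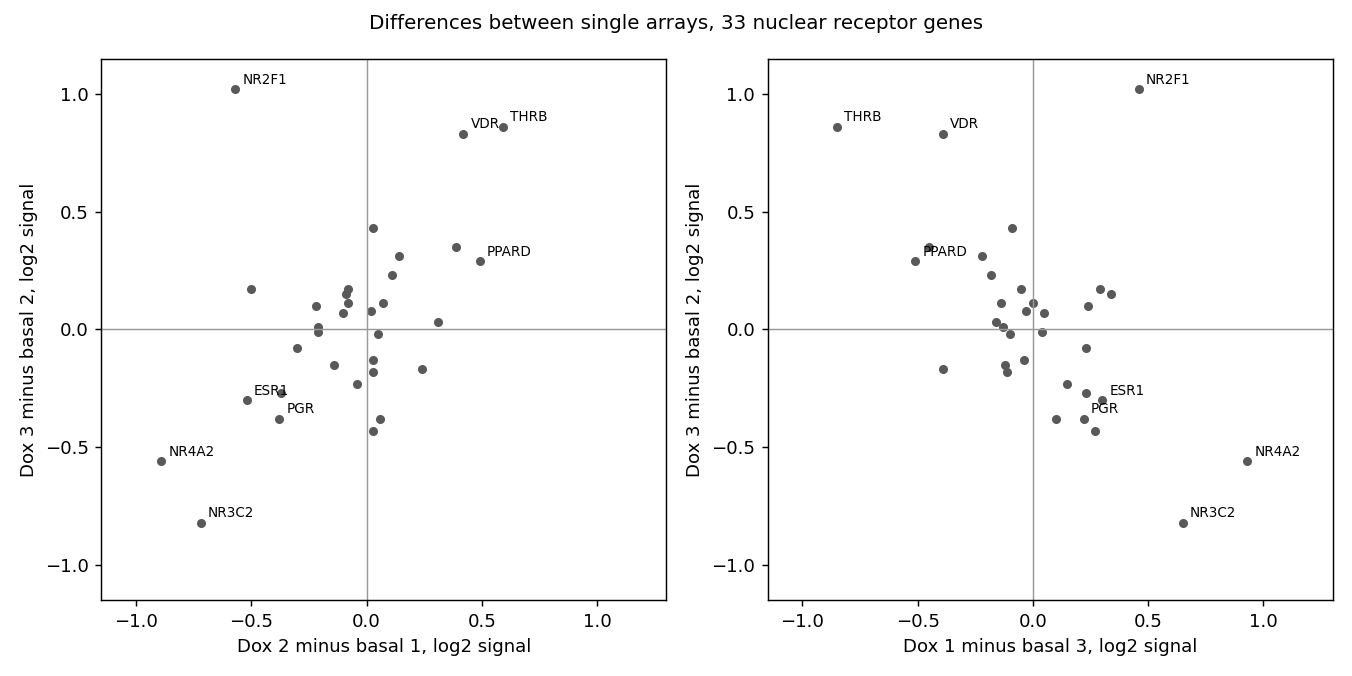
Differences between single arrays in log2 signal for 33 nuclear receptor genes (points), with Dox 3 minus basal 2 on the vertical axes against Dox 2 minus basal 1 (left) and Dox 1 minus basal 3 (right). THRB, VDR, PPARD, NR3C2, NR4A2, ESR1 and PGR have the same sign on both axes at left and opposite signs at right. The signs at right largely follow from those at left, since Dox 1 nearly equals basal 1 and Dox 2 nearly equals basal 3. NR2F1 shows the other arrangement.

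Some receptors have several probe sets, 108 in all for the 33 genes. Labelled groups did not overlap in 4 of the 108 (3.7%), against 3.5% of all 41091 probe sets with 1 symbol. They were other probe sets of ESR1 and ESR2, with Dox higher by 0.15 and 0.17, and of NR6A1 and PPARA, with differences of -0.12 and -0.17. The exact permutation test gave p = 0.1 for each, the smallest that the design allows. The ESR1 values were 5.55, 5.62 and 5.59 in Dox and 5.47, 5.31 and 5.54 in basal, while the ESR1 probe set with the highest signal moved the other way, by -0.17.

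Genes that work with the receptors were counted over lists of partners and targets. Over all 6 arrays 0 genes of any list passed limma's adjusted p of 0.05, so the counts that follow are from the 4-array fit without basal 3 and Dox 1, where 6.99% of all genes passed and the mirror fit called 0. Of 21 measured coactivators and corepressors, TBL1X, a subunit of the NCoR complex, was higher by 0.84 and PPARGC1A, the PGC-1 alpha coactivator, had a difference of -0.51, with signals below the median of the array on all 6 arrays. Of 12 HSP90 chaperones of steroid receptors, DNAJB1, a cochaperone of HSP70, was higher by 0.57.

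The lists nearest to the called receptors held calls too. Of 8 mineralocorticoid-responsive transport genes, ATP1B1, a sodium pump subunit, was higher by 2.12 and HSD11B2, which inactivates cortisol, by 1.35, with basal 1 and basal 2 below the median of the array, while SGK1, a kinase that raises sodium channel number, had a difference of -0.97. Of 9 vitamin D receptor targets, 2 passed, both lower in Dox, CALB1, a calcium-binding protein, at -1.58 and SPP1, osteopontin, at -0.53. Of 10 thyroid hormone receptor targets, SLC16A10, a transporter of aromatic amino acids and thyroid hormone, was higher by 1.03 and ME1, malic enzyme, had a difference of -0.37. Of 13 cAMP and immediate early genes, which are induced alongside the NR4A genes and are not their targets, SIK1, a kinase that restrains CREB coactivators, was higher by 1.53, and PDE4D and ATF3, a phosphodiesterase and a stress factor, had differences of -0.63 and -0.67.

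Targets of receptors that were not called also held calls. Of 15 glucocorticoid receptor targets, 5 were lower in Dox and 1 was higher. Beside SGK1 they were CEBPD, a transcription factor, at -0.80, the metallothioneins MT2A and MT1X at -0.41 and -0.42, and ERRFI1 at -0.50, with NFKBIA at 0.42 the higher one. ERRFI1, NFKBIA and, in the clock list, CIART were named after their values were seen, to complete these counts. Of 18 PPAR targets, 3 were lower, PDK4, which restrains glucose oxidation, at -0.70, the fatty acid transporter CD36 at -0.74 and the fatty acid-binding protein FABP3 at -0.77. Of 19 circadian clock genes, 5 were lower and 0 higher, with BHLHE41 and BHLHE40, repressors of the clock, at -1.48 and -1.06, the clock output factors DBP at -0.54 and HLF at -0.59, and CIART at -0.43. The clock list's median difference was -0.06, against -0.006 for all genes, and it includes 3 of the receptors. Of 13 estrogen and progesterone receptor targets, WNT4, a secreted ligand, and SIAH2, a ubiquitin ligase, were lower, at -0.55 and -0.37. PDK4 was the call among 13 ERR and PGC-1 targets.

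Bile acid, xenobiotic and liver genes also held calls. FGFR4, the bile acid pathway's FGF receptor, was higher by 1.93 and was the call among 13 genes around FXR and SHP, of which 9 were below the median of the array on all 6 arrays. Of 10 targets of PXR and CAR, CYP3A5 and ALAS1 were higher by 0.73 and 0.34, and ABCB1, a drug exporter, had a difference of -0.55. APOA1, the main HDL apolipoprotein, was higher by 1.69 and was the call among 9 HNF4A targets. Of 6 further nuclear receptors outside the 38, 0 passed. ATP1B1, HSD11B2, SLC16A10, SIK1, FGFR4, APOA1, CALB1, BHLHE40, BHLHE41 and PDK4 are among the genes the study itself names on these arrays, so counts that hold them are not independent evidence of direction.

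Among markers of other cells, 1 gene of each list passed in the 4-array fit. Of 7 markers of the adrenal medulla, CHGB, a granule protein, had a 4-array difference of -0.75, and of 13 stromal, endothelial and blood markers COL3A1, a fibrillar collagen, had one of -1.09, with signals of 8.74, 7.08 and 5.47 in Dox and 8.75, 5.98 and 7.09 in basal. The summed stromal list spanned 9.64 to 10.07 in Dox and 9.69 to 10.08 in basal, and the medulla list 8.67 to 9.74 and 8.95 to 9.73, as log2 of summed signal. Of 15 adrenocortical markers, SULT2A1, the DHEA sulfotransferase, was higher by 0.68, and the steroidogenic enzyme HSD3B2 and the cholesterol importer STAR had differences of -1.40 and -0.54. The adrenocortical sum spanned 14.84 to 14.98 in Dox and 14.84 to 14.99 in basal. Of 11 reference genes TFRC passed, at -0.30. Their part in the receptor differences was not tested.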

How the data were processed

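Total RNA of 6 cultures was measured on HG-U133 Plus 2.0 arrays, 3 labelled Dox and 3 labelled basal, which the study's methods describe as biological replicates with no pairing or batch named. The authors deposited log2 values per probe set and array. The submitters' processing notes name GCRMA without a version, and the methods name Affymetrix console software. GCRMA corrects background by probe sequence and compresses low signals, so differences near the array median are least certain. The sources do not say whether 1 normalization covered all arrays. No deposited column was left out (0 unused), and all values were used without further scaling.

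Of 54613 probe sets, 41091 (75.2%) had 1 symbol in the platform annotation, 1801 several and 11721 none. Each of 19775 genes took the probe set with the highest mean over the 6 arrays. Groups were compared with limma 3.58.1 in R 4.3.3 (lmFit, then eBayes with trend), two-sided, with Benjamini-Hochberg adjustment over all genes and a threshold of 0.05. Single genes were also compared by an exact permutation test over the arrays. In the 4-array fits, 2 arrays a label with the narrow arrays as a block left 1 residual degree of freedom. Signals of different probe sets depend on their probes, so a higher signal of 1 gene than of another was not read as more RNA. Mean signals were ranked across genes to choose receptors whose values were given. The number of arrays limits the precision. Scripts were tested on simulated data, and figures were made in Python 3.11.15 with matplotlib 3.10.9.

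The receptors, the lists and the tests were chosen with earlier results of these data known. Values in every array were given for receptors called in the 4-array fit, for the 6 with the largest difference, the 6 with the largest SD and the 6 with the highest mean signal. Of each list up to 4 genes with the smallest adjusted p in the 4-array fit were named. Alternatives were quantile normalization, a common median and spread, a filter on low values, other choices of probe set, other variance models, the study's thresholds (2-fold with an unadjusted p under 0.05), blocks by array set and by style of the sample labels, and leaving out arrays. Promoter windows are from RefSeq on GRCh38.p14, and the array files name no build.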

Additional observations from a re-analysis of the deposited data

How the results depend on the processing

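Over 6 arrays, 0 of 33 receptors and 0 of 19775 genes were called under each normalization, probe set choice, variance model and block tried and at the study's thresholds, the filter on low values called 0 of the 25 receptors and 13158 genes it left, and leaving out any 1 array gave 0 to 0 receptors. Without basal 3 and Dox 1, with the narrow arrays as a block, 4 receptors and 1383 genes were called. Receptors whose labelled groups did not overlap numbered 4 when a receptor counted by any of its probe sets, 9 without basal 3 and Dox 1 (27.3%, against 25.5% of all genes), 2 without basal 1 and Dox 2 (6.06%, against 13.4%), and 0 to 2 without any 1 array. Fewer arrays make such counts easier to reach. In the 4-array fit, alternatives chosen after seeing the data called 9 receptors with a common median and spread, with 10.1% of all genes called. This added ESR1, ESRRG, PGR, PPARA and PPARD. With the median over probe sets 2 were called (NR3C2 and NR4A2, with 7.1% of all genes). The cause of these changes was not tested. Label style as the block left basal 1 alone in its block, so only basal 2 was compared with Dox 2 and Dox 3. That fit cannot check the calls. The filter on low values left NR4A2 untested and called 3 of 25 receptors, with 10.9% of the genes it left. Quantile normalization added PGR, with 8.04% of all genes called, and without a block 0 receptors passed, with 0.0%. The sign of the 6-array difference changed for 0 to 14 of 33 receptors across settings, most often without basal 2. Of the 4 called receptors, NR4A2 turned sign, to 0.19 without basal 1 and Dox 2, 0.17 without basal 1 and 0.12 without Dox 3, none of them called. The other called receptors kept their sign but not their size. Without basal 1 and Dox 2 they differed by -0.08 for NR3C2, 0.01 for THRB and 0.22 for VDR. Without basal 2 they differed by -0.15, 0.01 and 0.03. In the mirror fit without basal 1 and Dox 2, Dox 1 minus basal 3 nearly reverses Dox 2 minus basal 1. The smaller sizes and the turned sign of NR4A2 in that fit follow from this and are no separate check. The labels give the groups no shared replicate numbers, so no pairing could be taken from them. The block of the 4-array fit sets Dox 2 beside basal 1 and Dox 3 beside basal 2. It therefore works as a pairing, chosen on these same data and not given by the labels. Signals below the median of the array are not shown to be above background, which limits PPARG, NR1I3, RXRG, HNF4G and NR2E3 on all arrays and NR4A2, NR2F1 and NR2E1 on 4 of 6.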
